A study of Rattus norvegicus with 32 samples.

Results

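S100a8, S100a9, Csf3r, Itgam, Itgb2, Ncf1, Camp and Fpr1 are 8 genes used as markers of neutrophils, and their transcripts were measured in the left ventricle of rats with and without abdominal sepsis. They were taken by name: every probe of the array, other than control probes, that the array's annotation gives to one of the 8 symbols was included. This gave 12 of the 45598 probes, for 8 of 36174 gene names in the annotation, placeholders included. Of the 8 genes, 4 had 1 probe and 4 had 2, and the probe with the highest mean over all arrays stood for the gene.

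The study asked how sepsis and the β1-blocker landiolol change cardiac transcripts in each sex. Wistar rats of both sexes, aged 9 to 12 weeks, had a sham operation, cecal ligation and puncture (CLP, which lets gut bacteria into the abdomen), or CLP followed by landiolol. Each sex had 5 sham, 5 CLP and 6 CLP plus landiolol arrays, 1 per heart, which makes 6 groups and 32 arrays. Landiolol, an ultra-short-acting blocker, was infused at 0.1 mg/kg/min from 1 h after CLP, and the other rats received saline. All animals were given buprenorphine. Every ventricle was collected at 20 h, after imaging in vivo and perfusion of the isolated heart. Hearts were chosen for the arrays by RNA quality among a larger number of animals.

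Neutrophils are the first leukocytes to enter infected tissue. They roll and stop on vessel walls through selectins and β2 integrins, follow chemoattractants such as formylated bacterial peptides, and kill with granule proteins and with superoxide from the phagocyte NADPH oxidase. S100a8 and S100a9 encode both subunits of calprotectin, the main protein of neutrophil cytosol, which is also made by monocytes. Csf3r is the receptor of the growth factor G-CSF, Itgam (CD11b) and Itgb2 (CD18) form the integrin Mac-1 that macrophages share, Ncf1 (p47phox) is the organiser subunit of the oxidase, Camp is the cathelicidin of specific granules, and Fpr1 is a formyl peptide receptor. In whole ventricle, a change in the number of cells of a type and a change in RNA per cell cannot be told apart.

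The probes are shown for the calprotectin pair, for a chain of Mac-1 by its second probe and for a receptor at the edge of detection, since each value below is the brightness of 60 bases of one transcript. Positions are on the rn4 build named in the array's headers, and the letters are as the scanner files give them.
S100a8, chr2:182962328-182962387, forward strand: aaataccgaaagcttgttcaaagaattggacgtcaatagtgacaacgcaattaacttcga
S100a9, chr2:182987647-182987706, reverse strand: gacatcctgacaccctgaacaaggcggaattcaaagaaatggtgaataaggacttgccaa
Itgam, second probe, chr1:187385032-187385565, forward strand: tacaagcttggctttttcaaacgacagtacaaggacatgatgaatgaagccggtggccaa
Csf3r, chr5:145393491-145393550, forward strand: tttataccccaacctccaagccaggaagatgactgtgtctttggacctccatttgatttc
The span given for this Itgam probe is longer than its 60 bases. The second probes of S100a8 and Camp lie on the strand opposite to the first ones, and neither was well above background on any of the 32 arrays, so no value rests on them.

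RefSeq (GRCr8) gave a sequence upstream of the start for 6 of the 8 genes, all but S100a8 and Itgb2. The 250 bases before the start were searched on both strands for TTNNGNAA, a motif of the C/EBP type, and GAGGAAG, a motif of the PU.1 type, since both factor families are known in myeloid cells. TTNNGNAA was present in 37.2% and GAGGAAG in 10.2% of the 33469 promoters in the table. Itgam held 2 matches of each, Csf3r held 1 of each, S100a9 and Fpr1 held 1 TTNNGNAA, and Ncf1 and Camp held none in this window. The windows of S100a9, Itgam and Ncf1 are printed 5′ to 3′, because these genes had values on most arrays and moved in different directions, with the matches in capitals. The last 2 matches in Itgam overlap.
S100a9, chr2:178490623-178490872, reverse strand: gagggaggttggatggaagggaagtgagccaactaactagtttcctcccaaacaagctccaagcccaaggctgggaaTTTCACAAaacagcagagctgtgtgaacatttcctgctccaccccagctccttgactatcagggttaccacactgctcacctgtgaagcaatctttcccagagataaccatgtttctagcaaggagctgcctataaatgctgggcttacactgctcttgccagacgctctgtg
Itgam, chr1:192089342-192089591, forward strand: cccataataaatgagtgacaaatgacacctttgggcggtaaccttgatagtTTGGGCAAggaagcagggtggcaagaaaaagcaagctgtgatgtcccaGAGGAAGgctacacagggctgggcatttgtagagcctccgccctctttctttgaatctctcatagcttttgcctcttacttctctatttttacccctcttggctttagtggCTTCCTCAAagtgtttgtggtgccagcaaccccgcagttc
Ncf1, chr12:28121635-28121884, forward strand: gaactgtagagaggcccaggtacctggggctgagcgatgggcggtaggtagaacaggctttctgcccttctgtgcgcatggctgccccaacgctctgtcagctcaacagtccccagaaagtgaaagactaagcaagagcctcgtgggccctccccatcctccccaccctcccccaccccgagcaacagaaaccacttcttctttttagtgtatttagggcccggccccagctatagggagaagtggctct

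Values are log2 of the spot intensity after quantile normalisation within a sex, so 1 unit is a doubling. They can be set side by side between groups of one sex for the same probe, but not between probes or between the sexes, since males and females were on different slides. Of 62976 spots, 34920 to 43155 per array were well above background, and the median signal of the arrays ran from 49.2 to 158. The cardiomyocyte genes of the tissue were present on all 32 arrays, and none of 11 passed the test after CLP in either sex (Myh6, the cardiac myosin heavy chain, moved by 0.04 in males and 0.04 in females). To enter the test in a sex, a probe had to exceed background clearly in 1 or more groups, on 80% or more of that group's arrays. By this rule 5 of the 8 genes were tested in males (S100a8, S100a9, Itgam, Itgb2 and Ncf1) and 6 in females (the same and Fpr1). S100a8 and S100a9 entered only through the CLP groups and Fpr1 only through the female sham group, so these had little chance of not differing. Csf3r and Camp were tested in neither sex.

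**Figure D1:**
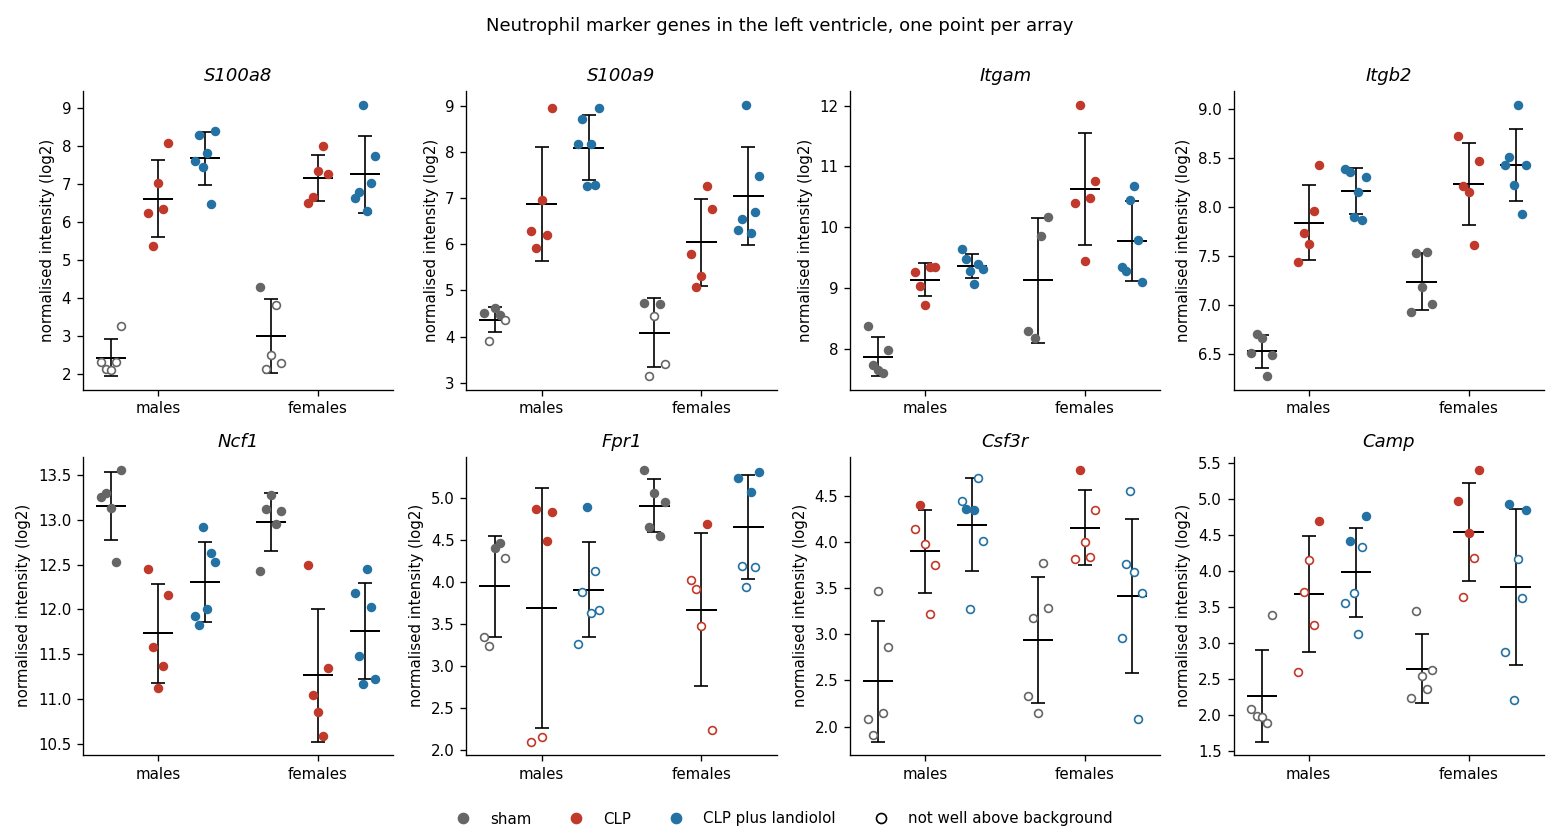
Normalised intensity (log2) of each of the 8 marker genes on every array, by treatment group and sex, with the group mean and SD as black lines and open points for spots not well above background. S100a8 lay between 2.11 and 3.28 on the male sham arrays and between 5.36 and 8.08 on the male CLP arrays, while Ncf1 lay lower after CLP in both sexes.

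The calprotectin pair gave the largest rise among the tested genes after CLP in males. S100a8 read 2.33, 2.13, 2.11, 2.32 and 3.28 in male sham hearts, none of them well above background. It read 6.25, 5.36, 7.02, 6.34 and 8.08 in male CLP hearts, all 5 well above background. Every CLP heart was above every sham heart. S100a8 was at least 11.3-fold higher after CLP, counting each sham array as no lower than the dimmest spot well above background on it, and the limma test over all 25866 probes gave an adjusted p of 2.69e-05. That bound holds for the background treatment of the scanner software: with a normexp correction the fitted change was 1.23 on the log2 scale, which is below it. In females S100a8 read 4.29, 2.13, 2.51, 3.82 and 2.29 in sham hearts, where only the first was well above background, against 6.51, 6.67, 7.35, 7.99 and 7.26 in CLP hearts. The female groups did not overlap either, and the change was 4.15 ± 0.52 (SE, log2) with a limma adjusted p of 0.00019. Its size rests on 4 sham values not well above background, and it ran from 1.40 to 4.45 over the alternatives, passing in each that tested it.

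S100a9 read 4.50, 3.90, 4.61, 4.47 and 4.35 in male sham hearts, 3 of 5 well above background, and 6.29, 5.92, 6.96, 6.20 and 8.95 in male CLP hearts. It rose by 2.50 ± 0.48 (SE, log2), which is 5.64-fold, with a limma adjusted p of 0.00235. The groups did not overlap. The highest CLP heart, at 8.95, stood apart from the other 4, and the same heart held the highest S100a8 of its group. In females S100a9 read 4.72, 3.14, 4.45, 4.71 and 3.42 after sham and 5.78, 5.08, 5.32, 7.25 and 6.76 after CLP. These groups did not overlap, but the difference of 1.95 ± 0.54 (SE, log2) did not pass an FDR of 1% (limma adjusted p = 0.0329). The male call of S100a9 was lost with other background treatments: the difference was 1.13 with a normexp correction (limma adjusted p = 0.0313) and 1.34 from mean signals (limma adjusted p = 0.0203), and with the values the authors deposited it was 1.85 (limma adjusted p = 0.0161).

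Both chains of Mac-1 rose after CLP in males. Itgam, the αM chain, read 8.39, 7.74, 7.67, 7.61 and 7.98 in male sham hearts and 9.27, 9.03, 8.72, 9.35 and 9.35 in male CLP hearts. The groups were separate, and Itgam rose 2.41-fold, by 1.27 ± 0.17 (SE, log2; limma adjusted p = 0.000129). Its second probe was also higher, 1.53 with a limma adjusted p of 0.0135, which did not pass. Itgb2, the β2 chain that Itgam shares with other leukocyte integrins, read 6.51, 6.70, 6.67, 6.28 and 6.49 in male sham hearts and 7.45, 7.73, 7.63, 7.97 and 8.44 in male CLP hearts. It rose 2.48-fold, by 1.31 ± 0.17 (SE, log2; limma adjusted p = 0.000129), again without overlap.

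In females neither chain passed the test, although Itgb2 did so under some alternatives. Itgb2 read 6.93, 7.53, 7.18, 7.55 and 7.02 in sham hearts and 8.73, 8.22, 8.15, 7.61 and 8.47 in CLP hearts. The groups were narrowly separate, and the difference of 0.99 ± 0.22 (SE, log2) missed the FDR of 1% (limma adjusted p = 0.0107). It passed with the slide as a term (0.90, limma adjusted p = 0.00416), with the values the authors deposited (1.01, limma adjusted p = 0.00901) and without female CLP replicate 4 (1.15, limma adjusted p = 0.00477). Itgam read 8.30, 8.19, 9.86 and 10.17 in 4 female sham hearts, the value of sham replicate 3 being left out because the scanner software marked its spot as an outlier. After CLP it read 10.40, 12.01, 9.46, 10.48 and 10.77. The groups overlapped, and the difference of 1.49 ± 0.52 (SE, log2) had a limma adjusted p of 0.091. The second Itgam probe gave 1.27 with a limma adjusted p of 0.0161.

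Ncf1 moved the other way. It read 13.25, 13.30, 13.13, 12.53 and 13.55 in male sham hearts and 12.45, 11.59, 11.12, 11.37 and 12.16 in male CLP hearts, and every CLP heart was below every sham heart. Ncf1 fell by 1.42 ± 0.28 (SE, log2) in males, which is 2.67-fold lower, with a limma adjusted p of 0.00254. In females it read 12.43, 13.12, 13.27, 12.96 and 13.10 after sham and 12.49, 11.05, 10.85, 10.59 and 11.35 after CLP. One female CLP heart lay just above the lowest sham heart, and the mean fell by 1.71 ± 0.33 (SE, log2; limma adjusted p = 0.00404). The second Ncf1 probe, at another position of the gene, was lower by a similar course without passing the test: -0.97 in males (limma adjusted p = 0.015) and -1.09 in females (limma adjusted p = 0.0214). The female call of Ncf1 did not hold in 6 of the 10 fits that left out 1 array, nor with the row of the array on its slide as a term.

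The 3 other genes were near the limit of detection. Camp was well above background on 8 of 32 arrays and Csf3r on 4 of 32, and neither on any of the 10 sham arrays. In females Camp read 2.23, 3.45, 2.55, 2.37 and 2.63 after sham and 4.98, 3.65, 4.53, 4.19 and 5.40 after CLP. With each sham array counted as no lower than the dimmest spot well above background on it, Camp was 2.24-fold higher. In males it was 1.49-fold higher by the same count, and the groups overlapped. Only 3 of the 5 female CLP values and 1 of the 5 male ones were well above background, so neither fold is a lower bound. Camp and Csf3r did not enter the main test. Without a filter neither passed an FDR of 1% after CLP. Camp was then at 1.90 in females (limma adjusted p = 0.0417) and 1.41 in males (limma adjusted p = 0.0498). Csf3r was at 1.21 in females (limma adjusted p = 0.127) and 1.41 in males (limma adjusted p = 0.0145). Fpr1 was well above background on 15 of 32 arrays, and its mean was lower after CLP in females. There it read 5.33, 4.65, 5.06, 4.55 and 4.95 in sham hearts and 4.02, 3.92, 3.48, 4.69 and 2.24 in CLP hearts, with only the 4.69 well above background. The groups overlapped, and the difference was -1.24 ± 0.38 (SE, log2) with a limma adjusted p of 0.0555. Its size depended on the processing: it ran from -1.49 to -0.03 over 21 alternatives and passed in 0 of them. In males Fpr1 was well above background on 2 of 5 sham and 3 of 5 CLP arrays, and the groups overlapped at an untested difference of -0.26.

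In counts, CLP against sham in males gave 4 genes that rose (S100a8, S100a9, Itgam and Itgb2) and 1 that fell (Ncf1) among the 5 tested, where 7.81% of all probes passed the FDR of 1%, 3.88% upwards and 3.94% downwards. S100a8 and S100a9 were tested only because the CLP groups were bright, so nothing is read from their share, while Itgam, Itgb2 and Ncf1 were well above background on all 10 of these arrays. The 5 were also without overlap between the groups, which held for 12.3% of all probes, or 6.11% with CLP higher. In females S100a8 rose and Ncf1 fell, 2 of 6 tested, where 3.63% of all probes passed, 1.82% upwards and 1.82% downwards. S100a8, S100a9 and Itgb2 were without overlap there, against 8.32% of all probes, or 3.95% with CLP higher. Nothing is read from the lack of overlap of S100a8 and S100a9 in either sex, or from the female call of S100a8, for the same reason of how they entered the test. The median change of all probes was 0.01 in males and -0.01 in females. Each group was split over 2 slides of its sex, and within each slide S100a8, S100a9, Itgam and Itgb2 were higher and Ncf1 was lower after CLP. The range over the slides was 3.98 to 4.64 for S100a8, 1.97 to 3.10 for S100a9, 0.94 to 2.01 for Itgam, 0.87 to 1.72 for Itgb2 and -2.11 to -1.31 for Ncf1.

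**Figure D2:**
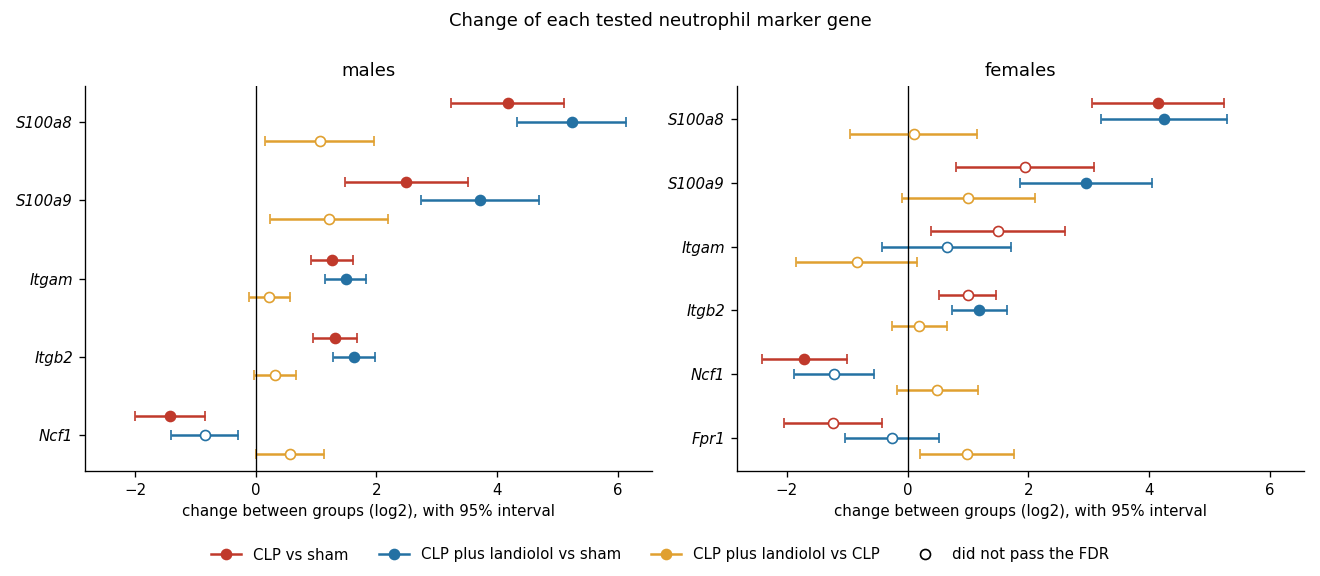
Change between groups (log2) with its 95% interval for each marker gene tested in males (left) and females (right), for the 3 comparisons in colour, with open points where the FDR was not passed. The 5 male changes after CLP all passed, and no change of CLP plus landiolol against CLP passed in either sex.

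The comparison of CLP plus landiolol with CLP asks what the blocker added in septic hearts. None of the tested genes passed the FDR of 5% by limma, 0 of 5 in males and 0 of 6 in females, where 1.56% and 0.0945% of all probes passed. At an unadjusted p below 0.05 there were 3 in males (S100a8, S100a9 and Ncf1) and 1 in females (Fpr1). A significance analysis of microarrays (SAM), the test of the study's methods, also called none. In males S100a8 read 7.62, 8.29, 7.44, 7.81, 6.48 and 8.40 under landiolol, a median of 7.71, which overlapped CLP. The difference was 1.06 with a 95% interval of 0.16 to 1.96 (limma adjusted p = 0.25). S100a9 ran from 7.27 through a median of 8.17 to 8.94 under landiolol in males, with a difference of 1.22 (0.25 to 2.20; limma adjusted p = 0.22). These intervals still hold a doubling, in the direction away from sham.

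The male difference in S100a9 was larger without 1 CLP heart. Without male CLP replicate 5, the one with the highest S100a8 and S100a9, S100a9 differed by 1.74 and passed (limma adjusted p = 0.0191). It also differed between the slides, being 1.66 on one and 0.55 on the other, and S100a8 gave 1.57 and 0.35. Itgam and Itgb2 lay close to CLP in males, at 0.22 (-0.12 to 0.56; limma adjusted p = 0.537) and 0.32 (-0.03 to 0.67; limma adjusted p = 0.385), and changed sign between the slides. Ncf1 lay between CLP and sham in males, with 11.83 as the lowest, 12.27 as the median and 12.91 as the highest value, 0.57 above CLP (0.01 to 1.13; limma adjusted p = 0.332).

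In females landiolol hearts overlapped CLP hearts in each tested gene. S100a8 ran from 6.30 through a median of 6.90 to 9.08, 0.10 from CLP (-0.95 to 1.15; limma adjusted p = 0.977). S100a9 ran from 6.25 through 6.61 to 9.02 and differed by 1.01 (-0.09 to 2.11; limma adjusted p = 0.584). In both genes the highest value belonged to the same heart. Itgam was the only one of the 6 that lay lower than after CLP, by -0.85 (-1.85 to 0.16; limma adjusted p = 0.621), and its second probe gave -0.45. Fpr1 ran from 3.94 through 4.63 to 5.31, with 3 of 6 arrays well above background, and was 0.99 above CLP (0.21 to 1.77; limma adjusted p = 0.388).

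Against sham, hearts of the CLP plus landiolol group gave the values that follow, with the same sham arrays as above. In males S100a8 was at least 23.7-fold higher (limma adjusted p = 2.21e-06), S100a9 rose by 3.72 ± 0.46 (limma adjusted p = 0.000142), Itgam by 1.49 ± 0.16 (limma adjusted p = 3.62e-05) and Itgb2 by 1.63 ± 0.17 (SE, log2; limma adjusted p = 2.01e-05). These 4 of 5 tested passed, where 4.15% of all probes did and 2.4% did so upwards, and the 4 did not overlap sham, against 7.79% of all probes, or 4.23% with the landiolol group higher. The bound for S100a8 holds for the background treatment of the scanner software. Over the alternatives the fitted S100a8 change ran from 1.90 to 5.53 on the log2 scale, and the lowest is below the bound. Ncf1 differed by -0.85 ± 0.26 and no longer passed (limma adjusted p = 0.0539). In females S100a8 rose by 4.25 ± 0.50 (limma adjusted p = 9.32e-05), S100a9 by 2.96 ± 0.52 (limma adjusted p = 0.00166) and Itgb2 by 1.19 ± 0.21 (SE, log2; limma adjusted p = 0.00203), 3 of 6 tested, where 5.25% of all probes passed and 3% did so upwards. The same 3 did not overlap sham, against 9.74% of all probes, or 5.57% with the landiolol group higher. In both sexes S100a8 and S100a9 were tested only through the septic groups, so nothing is read from their calls or lack of overlap. Ncf1 was at -1.22 (limma adjusted p = 0.0189) and Itgam at 0.65 (limma adjusted p = 0.454). In females the sham arrays all lay in the first row of the slides and the landiolol arrays all in the second, so row and treatment cannot be told apart here, and with the row as a term none of the 6 passed. The female CLP arrays lay in both rows, so row was also uneven between the groups of the other female comparisons.

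The sexes were compared by the difference between their changes, over 24769 probes kept in both, in a fit of all 32 arrays normalised together, so the differences can depart slightly from those between the changes given above. None of the 5 genes tested passed an FDR of 5% by limma in any of the 3 comparisons, and 0% of all probes did. For CLP against sham the male minus female difference was 0.08 for S100a8 (95% interval -1.37 to 1.52), 0.59 for S100a9 (-0.95 to 2.12), -0.25 for Itgam (-1.39 to 0.88), 0.31 for Itgb2 (-0.27 to 0.90) and 0.30 for Ncf1 (-0.60 to 1.21). The value for S100a8 compares changes from sham levels that were well above background on 0 of 5 male and 1 of 5 female arrays. The intervals leave room for differences of a doubling or more in S100a8, S100a9, Itgam and Ncf1. For landiolol against CLP, Itgam was at 0.22 in males and -0.85 in females, a difference of 1.08 (0.02 to 2.13; limma adjusted p = 0.972). Of the 15 differences (5 genes, 3 comparisons) it was the only one with an interval that left out 0. The second Itgam probe gave 0.56 for the same comparison, with an interval that held 0 (-0.44 to 1.56).

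**Figure D3:**
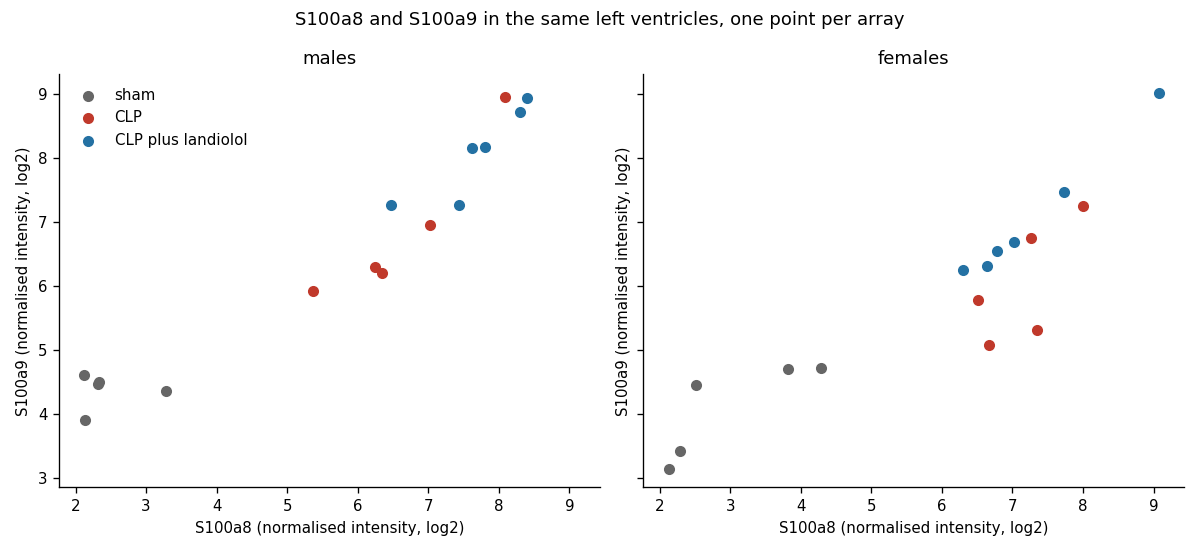
Normalised intensity (log2) of S100a9 against S100a8 on each array, males left and females right, coloured by treatment. The points rise together, with r = 0.96 over 16 male and r = 0.91 over 16 female arrays.

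S100a8 and S100a9 went together from heart to heart. Pearson's r was 0.96 over the 16 male and 0.91 over the 16 female arrays. It was 0.85 and 0.86 after each group's mean was taken out, pooled over the groups of a sex. The order of the hearts was not kept in every group. Among male sham hearts the highest S100a8 (3.28) was in replicate 5 and the highest S100a9 (4.61) in replicate 3. These correlations are descriptions over arrays that share slides and normalisation. The chains of Mac-1 followed each other in males (r = 0.92 over 16 arrays) but much of this lay between the groups (0.32 within them), and in females r was 0.39 over 15 arrays. S100a8 and Ncf1 ran in opposite directions, with r of -0.62 in males and -0.87 in females. Within groups this was 0.02 in males and -0.71 in females.

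A mean course over the arrays was taken for the 5 genes tested in both sexes. It averaged their log2 deviations without scaling, so genes with larger changes such as S100a8 weighed more, and Ncf1 ran against the others. Of all named probes, Mrgprx3, Siglec5, Ell, Galnt15 and Ncf4 were most like it. The lower r of the 2 sexes was 0.90, 0.88, 0.87, 0.87 and 0.87 over 16 and 16 arrays. Taken singly, S100a8 was most like Fkbp5 (0.91), Serpina3n (0.91) and S100a9 (0.91), Itgb2 most like Cxcl13 (0.92), Ap3s1 (0.91) and Mrgprx3 (0.90), and Ncf1 most like Extl1 (0.90), Efcc1 (0.88) and Fbln1 (0.87). Itgam had no partner above 0.74.

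**Figure D4:**
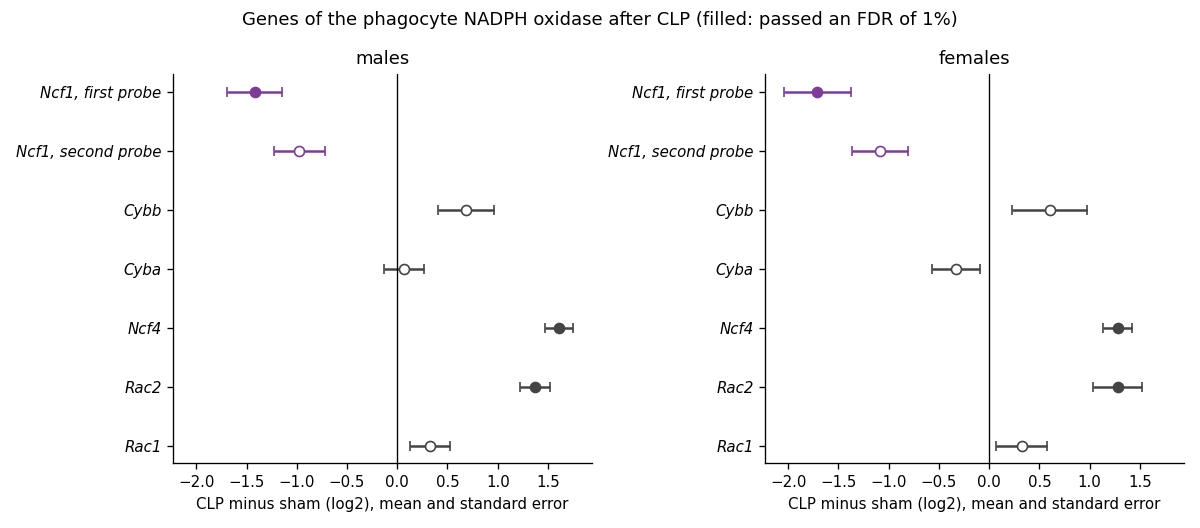
CLP minus sham (log2, mean and SE) for the 2 probes of Ncf1 and 5 other genes of the phagocyte NADPH oxidase, males left and females right, with filled points where an FDR of 1% was passed. Both Ncf1 probes lie below 0 and Ncf4 and Rac2 above it in both sexes.

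None of the 5 other genes of the oxidase reported here passed the test in the direction of Ncf1. They were tested in both sexes, and in each sex 2 rose after CLP, with a median of 0.68 in males and 0.60 in females. Ncf4 (p40phox), the partner of Ncf1 in the cytosolic complex, rose by 1.61 ± 0.14 in males (limma adjusted p = 3.89e-06) and 1.28 ± 0.15 in females (SE, log2; limma adjusted p = 0.000106). Rac2, the leukocyte GTPase that switches the oxidase on, rose by 1.37 ± 0.15 in males (limma adjusted p = 3.76e-05) and 1.28 ± 0.24 in females (SE, log2; limma adjusted p = 0.00371), and rose a further 0.68 ± 0.15 with landiolol in males (limma adjusted p = 0.0291). The membrane subunits Cybb and Cyba and the ubiquitous Rac1 did not pass, Cybb with 0.68 in males and 0.60 in females and Cyba with 0.06 and -0.33. No test was made of the difference between Ncf1 and Ncf4.

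Genes of granule proteins split by detection. Of 21 on the array, 10 were tested in each sex. In both sexes 4 rose after CLP: Lcn2 (lipocalin 2, an iron-binding defence protein) by 5.10 in males (limma adjusted p = 6.72e-07) and 3.82 in females (limma adjusted p = 5.97e-05), Chi3l1 by 3.32 and 2.73, Slpi (an inhibitor of neutrophil elastase) by 2.82 and 2.96, and Lyz2 (lysozyme) by 1.44 and 1.01. Arg1 fell by 1.60 in males (limma adjusted p = 0.00954). The list's median change was 0.35 in males and 0.33 in females. Lcn2 was the one gene of the list that passed with landiolol against CLP, where it fell by 1.53 ± 0.33 (SE, log2; limma adjusted p = 0.0313) in males, from a mean of 15.30 to 13.76. The genes best known from neutrophil precursors and granules were at or near the floor: Elane, Prtn3, Ctsg, Ltf, Mmp8 and Ngp were well above background on none of the 32 arrays, Mpo on 1 and Mmp9 on 3. The list's defensins Defa5 and Np4 were well above background on 0 and 1 of 32 arrays.

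**Figure D5:**
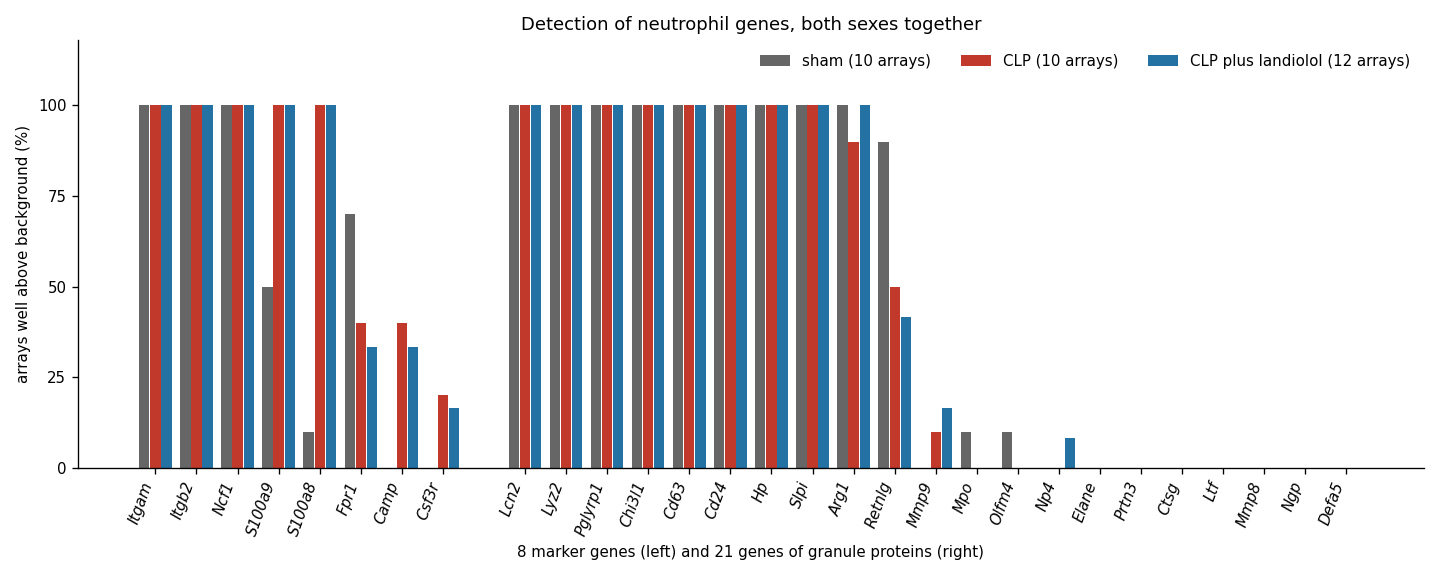
Percent of arrays of both sexes on which each of the 8 marker genes and of the 21 genes of granule proteins was well above background, for 10 sham, 10 CLP and 12 CLP plus landiolol arrays. S100a8 goes from 1 of 10 sham arrays to 10 of 10 CLP arrays, and 7 granule genes have no bar at all.

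Among other genes that mark neutrophils, 6 of 14 on the array were tested in each sex and Il1r2, the decoy receptor of interleukin 1, rose by 2.01 in males (limma adjusted p = 0.000234) and 2.35 in females (limma adjusted p = 0.000284). The chemokine receptor Cxcr2 was well above background on 8 of 32 arrays, 0 of them sham, and Cxcr1 on none. Genes of adhesion and rolling gave 0 calls of 12 tested in males and 0 of 10 in females for CLP against sham by limma. The brightest, Icam1 and Vcam1, which bind β2 and β1 integrins on the vessel wall, were at -0.27 and -0.45 in males and at -0.88 and -1.02 in females (limma adjusted p = 0.347 and 0.172). Vcam1 was lower in every female CLP heart than in every female sham heart, where 8.32% of all probes did not overlap in either direction.

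Of the chemoattractants, C3, the source of the anaphylatoxin C3a, rose by 4.83 in males (limma adjusted p = 3.53e-09) and 3.89 in females (limma adjusted p = 3.47e-05), and Cxcl12 fell by 1.62 in males (limma adjusted p = 0.00393). The remaining 4 of 6 tested in males did not pass, among them Cxcl1 at 0.27 and Cxcl2 at 0.07, which were bright in all groups. Of 5 receptors tested, C3ar1, the receptor of C3a, rose by 0.94 in males (limma adjusted p = 6.4e-05) and by a further 0.56 with landiolol (limma adjusted p = 0.0179). In females C3ar1 differed by 0.99 after CLP (limma adjusted p = 0.0174).

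Of 10 genes of granulopoiesis and survival tested, Csf3, the ligand of the receptor Csf3r, rose by 3.83 ± 0.55 in males (limma adjusted p = 0.000277) and 2.83 ± 0.60 in females (SE, log2; limma adjusted p = 0.00794), while the receptor was well above background on 4 of 32 arrays, as given above. Csf2rb rose by 2.31 in males, where 2 of 5 sham and 5 of 5 CLP arrays were well above background, so that it too was tested through the septic groups. Cebpb rose by 0.67 in males and Mcl1 by 0.60 in females. Of the 8 receptors and partners of calprotectin, Myd88, an adaptor of Toll-like receptors, rose by 0.87 in males (limma adjusted p = 0.00646) and S100a6 fell by 1.39, and none passed in females.

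Markers of other cells were read beside these, since Itgam, Itgb2, Ncf1 and S100a8 are not specific to neutrophils. Of 11 macrophage and monocyte genes tested, 2 rose after CLP in both sexes: Adgre1 (F4/80) by 2.79 in males (limma adjusted p = 7.66e-05) and 2.79 in females (limma adjusted p = 0.000259), and Cd68 by 0.86 and 0.72. By sign, 7 of the 11 lay higher and 4 lower in males, and 9 higher and 2 lower in females. The list's median change was 0.26 in males and 0.09 in females. The summed level of the 11 ran from 14.55 to 15.36 in male sham and 15.07 to 15.34 in male CLP hearts, and from 14.73 to 15.08 and 14.82 to 15.46 in females. Ccr2 and Marco were well above background on 4 and 2 of 32 arrays, and 10 of the 13 genes of the list on all 32. The part of macrophages in the rise of the Mac-1 chains was not tested.

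Genes of T, B and NK cells gave no call, and the summed level of 6 in males ran from 11.16 to 11.52 in sham and 11.08 to 11.27 in CLP hearts. Platelet genes gave no call either. Of the red cell genes, Slc4a1 (band 3) fell by 3.25 in males and 2.96 in females. The summed levels of 3 genes were 11.24 to 12.89 in male sham and 10.16 to 12.12 in male CLP hearts. Slc4a1 did not stand for its list in females, where 3 of 4 tested lay higher after CLP without passing (list median 2.01). There the summed level of 4 ran from 11.70 to 11.95 in sham and 10.82 to 16.81 in CLP hearts. Of 8 fibroblast genes, 4 fell in males after CLP, among them Col1a1 by 2.11 (limma adjusted p = 0.00154), Col3a1 by 2.05 and Lum by 1.89, and Tcf21 rose by 1.25. Emcn, an endothelial sialomucin, fell by 1.08 in males and 1.34 in females. Kit rose by 0.78 in males, against the direction of most of the mast cell and eosinophil list. Of its 7 genes tested, 5 lay lower in males (list median -0.29) and 6 lay lower in females (list median -0.81), none passing. Whether these shifts bear on the level of Ncf1 was not tested.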

How the data were processed

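RNA of 32 left ventricles was hybridised to 1-colour Agilent rat arrays and read with Agilent Feature Extraction 10.5 (header build rn4). That software had removed background and spatial trends from the deposited intensity of each spot. A second deposited file holds log2 values that the authors quantile normalised within a sex and filtered, and it served as an alternative. Of 62976 spots, 58717 were not controls. For the present report, 213 probe values marked as outliers were left out, intensities were put on the log2 scale, repeated spots were averaged, and quantile normalisation was run over the 16 arrays of each sex. Probes well above background on 80% of the arrays of at least 1 group were kept (25866 in males, 25395 in females). No spot was saturated. Depth has no equivalent here, and the number of arrays limits the precision.

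The sham, CLP and CLP plus landiolol groups of a sex were fitted with limma 3.58.1 in R 4.3.3 (with data.table, version 1.17.8) and p-values were adjusted by Benjamini-Hochberg over all kept probes. The FDR was 1% against sham and 5% for landiolol against CLP and for the difference between the sexes, after the levels of the study. Intervals are 95% intervals of limma, not adjusted. The methods were tested on simulated data. Replicates are separate rats, numbered in accession order. Males were on slides 1 and 2 and females on slides 3 and 4. The array headers name 1 protocol for slides 1, 2 and 4 and another for slide 3. Each female group thus held arrays of both protocols, and the main fit had no slide term.

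The 8 genes and the gene lists were chosen with earlier results of these data known. Genes of lists are named by a rule: up to 4 called genes with the largest change in CLP against sham in males, or in females where males had none, any gene called with landiolol against CLP, and otherwise the 2 brightest. Cybb, Cyba, Rac1, Cxcl1, Cxcl2, Cxcr1, Cxcr2, Mpo, Mmp9, Np4, Ccr2, Marco, Mcl1 and the granule genes on no array were named after their values were seen. Some genes of the lists are not reported here and were left out of their counts. The alternatives were other background corrections, 75th percentile scaling, normalisation of both sexes together or apart, other filters, any kept probe of a gene, slide or row of the slide as a term, fits of the 2 groups compared only, SAM with 100 permutations, the authors' values, other FDR levels and leaving out each array in turn.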

Additional observations from a re-analysis of the deposited data

Results flagged for a closer look

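Of 48 groups of arrays (8 genes, 6 groups), 2 held a value far from the others by Dixon's criterion, which chance gives in about 1 of 20 groups. S100a8 in male sham replicate 5 read 3.279, where the nearest of the other 4 sham arrays read 2.333, a gap of 0.812 of the group's range. Camp in the same array read 3.399, where the nearest read 2.086, a gap of 0.873 of the range. Neither spot was well above background, and the 5 calls of CLP against sham in males were also obtained without this array.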

How the results depend on the processing

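The male calls of S100a8, Itgam, Itgb2 and Ncf1 after CLP were obtained under every alternative that tested them. The size of the S100a8 change depended on the background treatment, from 1.23 (normexp) to 4.48 on the log2 scale. The 5 calls in males kept their number in all 10 fits without 1 array. In females, CLP against sham called 2 genes; it called 1 with background on 80% of all arrays as the filter (S100a8 was then not tested), 1 with the slide's row in the model, 1 in the fit of only the 2 groups, 1 by SAM and 4 at an FDR of 5%, and 1 to 2 without single arrays, since Ncf1 was lost without sham replicate 2, 3 or 5 or CLP replicate 2, 3 or 4, while Itgb2 was gained without CLP replicate 4 (1.15), with the slide as a term (0.90) and with the authors' values (1.01). CLP plus landiolol against sham in females called 0 rather than 3 with the row as a term (20 of all probes), where row and treatment coincide. S100a9 in that comparison was lost with normexp (1.26, limma adjusted p = 0.0114) and with the authors' values (1.73, limma adjusted p = 0.0239). Landiolol against CLP in males called 0 to 1 genes without single arrays. Without a filter, Csf3r was called in males for CLP plus landiolol against sham alone (1.70, limma adjusted p = 0.00556). Signs turned only where nothing was called: the S100a8 difference of landiolol against CLP in females was -0.37 with the row as a term and -0.26 to 0.31 without single arrays, Fpr1 against sham under landiolol in females was 0.0903 with the row and 0.10 with the authors' values, and the S100a8 difference between the sexes after CLP was -0.15 with normexp. Without single arrays, the difference between the sexes ran from -0.29 to 0.39 for S100a8 and -0.60 to 0.10 for Itgam after CLP, and from -0.0871 to 0.735 for S100a9 and -0.24 to 0.25 for Ncf1 with landiolol. The cause of these changes was not tested. No paired analysis was possible because replicate numbers follow accession order and pair no animals. Values near background, as for S100a8 in sham hearts, Camp, Csf3r and Fpr1, limit what the arrays can show.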

Other observations

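One female CLP array stood apart in the red cell genes: the summed level of 4 of them ran from 10.82 to 16.81 in female CLP hearts, with a median of 11.93, against 11.70 to 11.95 in female sham hearts. Retnlg, a gene of rodent neutrophils, was well above background on 9 of 10 sham, 5 of 10 CLP and 5 of 12 CLP plus landiolol arrays. Trem3 and Clec4d, receptors of myeloid cells, were well above background on 1 and 2 of 10 sham arrays, 3 and 8 of 10 CLP arrays and 5 and 8 of 12 CLP plus landiolol arrays. These 3 genes were chosen after their values were seen, and no test was made of the counts.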
